A study of Rattus norvegicus with 144 samples.

Results

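Genes that encode the mitogen-activated protein (MAP) kinases, the kinases that relay signals to them and the phosphatases that switch them off were described in livers of 72 rats, males of the inbred strain F344/N at 10 to 12 weeks of age. The members were all genes on the array whose annotated symbol begins with Mapk followed by a digit or the letter a, with Map2k, Map3k or Map4k and a digit, or with Dusp and a digit, leaving out Dusp1. This gave 43 of the 18978 gene rows measured, where a row is 1 symbol, or 1 probe if the annotation gave it none or several. Rats received acetaminophen, a painkiller with known toxicity to the liver at high dose, at 150, 1500 or 2000 mg/kg by gavage, or its vehicle alone, a suspension of 0.5% ethyl cellulose that the dosed rats received as well. Each dose was split in 2 to increase absorption, and tissue of the left lobe was collected 3, 6 or 24 h later. Each of the 12 groups of time and dose held 6 rats. No group carried a mutation or a transgene. RNA of each rat was measured on 2 two-colour arrays with the dyes exchanged, against pooled RNA of 6 vehicle rats of the same time. A value below called a log2 ratio is that of 1 rat to this pool, and a log2 difference is the mean log2 ratio of dosed rats minus that of vehicle rats of the same time, ± SE. The differences ask how transcripts of the pathway depend on dose and time.

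MAP kinases are activated in relays in which a MAP4K or a small GTPase acts on a MAP3K, the MAP3K phosphorylates a MAP2K, and the MAP2K phosphorylates a MAP kinase of the ERK, JNK or p38 family. Dual specificity phosphatases (DUSPs) remove the activating phosphates, and many of their genes are transcribed in response to the kinases they switch off, which makes them feedback inhibitors. In the liver JNK is known for its activation after an acetaminophen overdose, and ERK for its part in the growth response of hepatocytes. The members fell into 6 MAP kinases (Mapk4, Mapk6, Mapk8, Mapk9, Mapk10 and Mapk14), 7 MAP2K, 10 MAP3K, 3 MAP4K, 2 kinases downstream of p38 (Mapkapk2 and Mapkapk3), 3 scaffold or partner proteins and 12 DUSPs. Phosphorylation and protein were not measured.

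Promoters of 3 members are shown because these genes had the largest fall, the largest rise and a response of opposite direction at early and late times. Each runs from 250 bases before to 50 after the gene's start in RefSeq on build GRCr8, 5′ to 3′ on the gene's strand. Capitals mark CArG boxes, the binding motif of serum response factor, in Dusp5, and an antioxidant response element (ARE, TGACNNNGC) in Mapkapk3. The Dusp6 window is chr7:35979354-35979653 on the plus strand, that of Dusp5 is chr1:262543524-262543823 on the plus strand and that of Mapkapk3 is chr8:116842179-116842478 on the minus strand.
Dusp6: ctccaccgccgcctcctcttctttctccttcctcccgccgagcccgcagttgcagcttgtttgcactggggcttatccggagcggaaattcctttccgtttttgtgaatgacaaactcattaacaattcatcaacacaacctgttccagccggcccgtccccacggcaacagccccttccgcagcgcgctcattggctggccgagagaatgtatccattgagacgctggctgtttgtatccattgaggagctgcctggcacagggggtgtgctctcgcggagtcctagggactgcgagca
Dusp5: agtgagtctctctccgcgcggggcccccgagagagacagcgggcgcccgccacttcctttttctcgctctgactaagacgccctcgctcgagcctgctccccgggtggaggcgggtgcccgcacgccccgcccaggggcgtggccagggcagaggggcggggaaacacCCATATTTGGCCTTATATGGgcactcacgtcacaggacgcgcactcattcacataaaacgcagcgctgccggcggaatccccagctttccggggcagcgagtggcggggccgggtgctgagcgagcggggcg
Mapkapk3: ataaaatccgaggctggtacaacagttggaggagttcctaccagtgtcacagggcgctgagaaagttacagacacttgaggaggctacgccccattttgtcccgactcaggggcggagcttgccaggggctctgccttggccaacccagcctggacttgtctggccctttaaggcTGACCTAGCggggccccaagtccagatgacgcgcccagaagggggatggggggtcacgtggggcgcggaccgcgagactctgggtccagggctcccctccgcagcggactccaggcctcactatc
The Dusp6 window held no AP-1 motif (TGANTCA), cyclic AMP response element (CRE, TGACGTCA), Ets motif (CCGGAAGT), ARE, FOXO motif (TGTTTAC), Egr1 motif (GCGTGGGCG) or CArG box on either strand. The Dusp5 window held 2 CArG boxes side by side, starting 82 and 72 bases before the gene's start. That motif was added to the search after the Dusp5 window had been read. It occurred in 1.64% of 33469 rat promoters of the same length and in 2 of 42 windows of members, those of Dusp5 and Map4k1. The ARE occurred in 12.1% of all promoters and in 8 of 42 windows, among them Mapkapk3 and Mapkapk2. The CRE occurred in 1.83% of all promoters and in 3 windows, those of Map3k13, Mapk10 and Mapk1ip1. AP-1 occurred in 7.33% of all promoters and in the windows of Dusp14, Map2k4 and Map3k8, and Ets in 3.81% and in the windows of Map3k6 and Mapk8ip3. In all, 40 members matched a promoter, and some motifs can overlap in part. A match describes the letters and does not show binding.

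The log base of the deposited ratios is not given in the sources used here, and log10 was assumed, so another base would scale every log2 value by a common factor. The direction of the ratios is likely and rests on genes that acetaminophen is known to induce. At 24 h and 2000 mg/kg metallothionein Mt2A was higher by 3.93 ± 0.48, heme oxygenase Hmox1 by 2.43 ± 0.50 and the quinone reductase Nqo1 by 2.16 ± 0.16. Ratios give no level of one gene against another, and they give no level of liver markers by which the tissue label could be checked. A set of 49 arrays shared 450 blank probes. It held both arrays of 23 rats, including 3 of 6 rats of 2000 mg/kg and 0 of 6 vehicle rats at 3 h, and 3 of 6 rats of 2000 mg/kg and 2 of 6 vehicle rats at 24 h. In whole tissue, fewer cells of a type and less RNA per cell cannot be told apart.

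Of the 43 members, 21 changed in at least 1 of the 6 comparisons of 1500 or 2000 mg/kg with vehicle and 22 in none, at an adjusted p under 0.05. The 21 were 48.8% of the members, against 38.7% of all rows and 44.8% of the rows with a gene symbol that changed in at least 1 of the same 6. A change here means limma's moderated test, with 1 spread per gene shared by all groups and Benjamini-Hochberg adjustment over all 18978 rows. At 3 h 6 members changed at 1500 mg/kg (3 higher, 3 lower), where 5.84% of all rows changed (3.39% higher, 2.44% lower), and 7 at 2000 mg/kg (4 higher, 3 lower), where 9.01% did (4.92% higher, 4.09% lower). At 6 h 3 members changed at each dose (2 higher, 1 lower), against 6.88% of all rows at 1500 mg/kg (3.65% higher, 3.23% lower) and 11.1% at 2000 mg/kg (5.31% higher, 5.84% lower). At 24 h 12 changed at 1500 mg/kg (6 higher, 6 lower), against 21.5% of all rows (10.2% higher, 11.4% lower), and 18 at 2000 mg/kg (11 higher, 7 lower), against 24.3% of all rows (11.8% higher, 12.5% lower). As shares of the 43 members these counts were 14% and 16.3% at 3 h, 6.98% at each dose at 6 h, and 27.9% and 41.9% at 24 h, in order of dose. Among the 9653 rows with a gene symbol, 27.2% (2621 rows) changed at 24 h and 1500 mg/kg and 30% (2898 rows) at 2000 mg/kg. Every member has a symbol, and against such rows the share of members at 24 h and 1500 mg/kg was near the background. It was near or below the share of all rows at 6 h and above it at 3 h and at 24 h and 2000 mg/kg, and the difference of the shares was not tested.

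Not every call was equally firm. Those of Dusp6 at 3 h, Map2k3 at 24 h, Mapkapk3 at 3 h and 2000 mg/kg, Map2k1 at 24 h and 1500 mg/kg and Dusp9 at 24 h and 2000 mg/kg held under every alternative processing tried and with each rat left out. With rats quantile normalized against each other, 8 members changed at 24 h and 2000 mg/kg, and the calls there of Dusp2, Dusp14, Dusp16, Dusp22, Map2k4, Map4k1, Map4k3, Mapk9, Mapk14 and Mapk1ip1 were lost. The share of all rows that changed under that setting is not given here, so this count has no background beside it. With a fit restricted to the groups compared, so that the spread was estimated from 12 rats, calls of Mapk8 at 3 h and of Map2k6, Mapk8ip1, Map4k1 and Map4k3 at 24 h and 1500 mg/kg were among those lost.

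The shared blank probes allowed a comparison within rats of one kind, added after seeing the data and made with fewer rats. In rats with no array in that set Dusp6 differed at 3 h by -2.35 ± 0.43 (adjusted p = 0.000659) at 1500 mg/kg and -2.71 ± 0.46 (adjusted p = 0.000167) at 2000 mg/kg. At 24 h and 2000 mg/kg the differences in these rats were 2.07 ± 0.35 for Dusp5, 1.10 ± 0.18 for Map2k3, -0.93 ± 0.16 for Dusp9 and 0.72 ± 0.12 for Map2k1, each past the threshold. In rats with both arrays in the set they were 1.78 ± 0.69 (adjusted p = 0.113), 0.97 ± 0.20 (adjusted p = 0.00541), -0.64 ± 0.09 (adjusted p = 0.00031) and 0.61 ± 0.19 (adjusted p = 0.0555) for the same 4 genes. At 24 h and 1500 mg/kg Dusp5 and Dusp9 did not pass in rats with no array in the set, at 0.99 ± 0.35 (adjusted p = 0.116) and -0.46 ± 0.16 (adjusted p = 0.101), and passed in rats with both, at 2.25 ± 0.69 and -0.72 ± 0.09. Map2k3 and Map2k1 passed at 1500 mg/kg in both kinds, at 0.68 ± 0.18 and 0.45 ± 0.12 with no array in the set and 0.92 ± 0.20 and 0.71 ± 0.19 with both. The direction of these 4 genes at 24 h was the same in both kinds of rats. Mapk8 at 3 h did not pass in rats with no array in the set, at 0.38 ± 0.15 (adjusted p = 0.262) for 1500 mg/kg and 0.43 ± 0.16 (adjusted p = 0.148) for 2000 mg/kg. At 3 h no vehicle rat had both arrays in the set, so rats of that kind gave no value.

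Sizes were small for most members. The median log2 difference of the 43 members was 0.11 at 24 h and 2000 mg/kg, against -0.01 over all rows, and the median of absolute differences was 0.24 against 0.20. Every member that changed at 1500 mg/kg also changed at 2000 mg/kg in the same direction, which concerned 6 members at 3 h, 3 at 6 h and 12 at 24 h. The doses share their vehicle rats, so this is not independent support. Map2k4, Mapk1ip1 and Mapkapk3 changed at all 3 times at 2000 mg/kg. The shares of all rows that did so, or that changed at both doses of a time, were not counted. Groups of dosed and vehicle rats did not overlap in 2 members at 3 h and 2000 mg/kg (5.94% of all rows), in 3 at 6 h (8.79%) and in 8 members at 24 h and 2000 mg/kg (10.6% of all rows). At 1500 mg/kg they did not overlap in 4 members at 3 h (4.56% of all rows), 0 at 6 h (2.09%) and 3 at 24 h (4.18%).

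**Figure D1:**
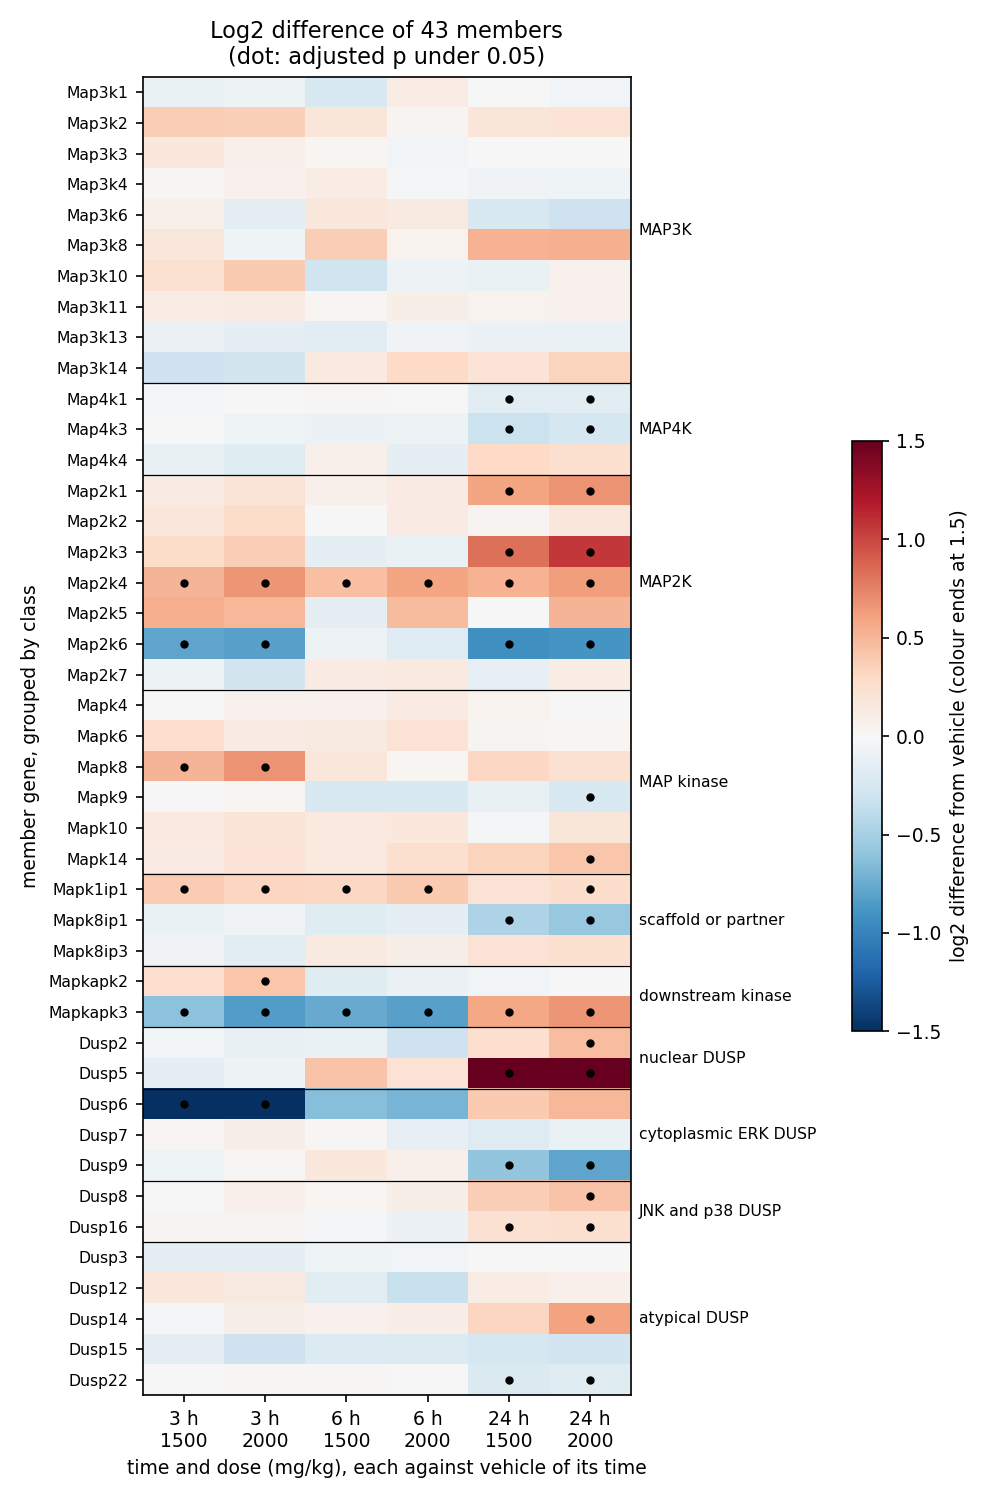
Log2 difference from vehicle (colour, blue lower and red higher, ending at 1.5) of the 43 members (rows, grouped by class) in the 6 comparisons of 1500 or 2000 mg/kg (columns, by time and dose), with a dot where the adjusted p was under 0.05. The row of Dusp6 is darkest at 3 h and that of Dusp5 at 24 h, and no MAP3K carries a dot.

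Dusp6, which removes phosphate from ERK in the cytoplasm and is itself induced by ERK signalling, had the largest fall of any member. At 3 h its log2 ratio was -2.66 at the lowest, -2.22 at the median and -1.90 at the highest in rats of 1500 mg/kg, and -2.84, -2.67 and -2.36 in rats of 2000 mg/kg, against -0.74, 0.31 and 1.01 in vehicle rats. All 12 rats of the higher doses lay below all vehicle rats, and they lay closer together, with an SD of 0.25 and 0.19 against 0.69. The log2 difference was -2.41 ± 0.35 (adjusted p = 8.23e-07), or 0.188 times vehicle, at 1500 mg/kg and -2.79 ± 0.35 (adjusted p = 9.87e-09), or 0.145 times vehicle, at 2000 mg/kg. At 150 mg/kg the ratios ranged from -1.19 to 1.32 around a median of 0.28, and the difference was -0.04 ± 0.35. The 2 probes of the gene correlated at r = 0.991 over the 72 rats.

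Dusp6 was uneven at 6 h. In rats of 1500 mg/kg the ratio was -1.51 at the lowest, -0.02 at the median and 0.25 at the highest, in rats of 2000 mg/kg -0.99, -0.52 and 0.48, and in vehicle rats -0.32, 0.35 and 0.46. Rats 8918 and 644 of 1500 mg/kg stood at -1.51 and -1.42, and the other rats of that dose lay at or above -0.20. The differences of -0.64 ± 0.35 (adjusted p = 0.342) and -0.70 ± 0.35 (adjusted p = 0.222) did not pass. At 24 h the differences were 0.40 ± 0.35 (adjusted p = 0.476) at 1500 mg/kg and 0.49 ± 0.35 (adjusted p = 0.336) at 2000 mg/kg. There the ratios ran from 0.03 to 0.80 at 1500 mg/kg and from 0.08 to 1.30 at 2000 mg/kg, within the range of -0.68 to 1.24 in vehicle rats save for 1 rat. The response, taken as the mean of both doses minus vehicle, was higher at 6 h than at 3 h by 1.93 ± 0.42 (adjusted p = 0.00262) and at 24 h than at 3 h by 3.05 ± 0.42 (adjusted p = 1.45e-07). From 6 to 24 h it differed by 1.12 ± 0.42 (adjusted p = 0.0631), which did not pass.

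**Figure D2:**
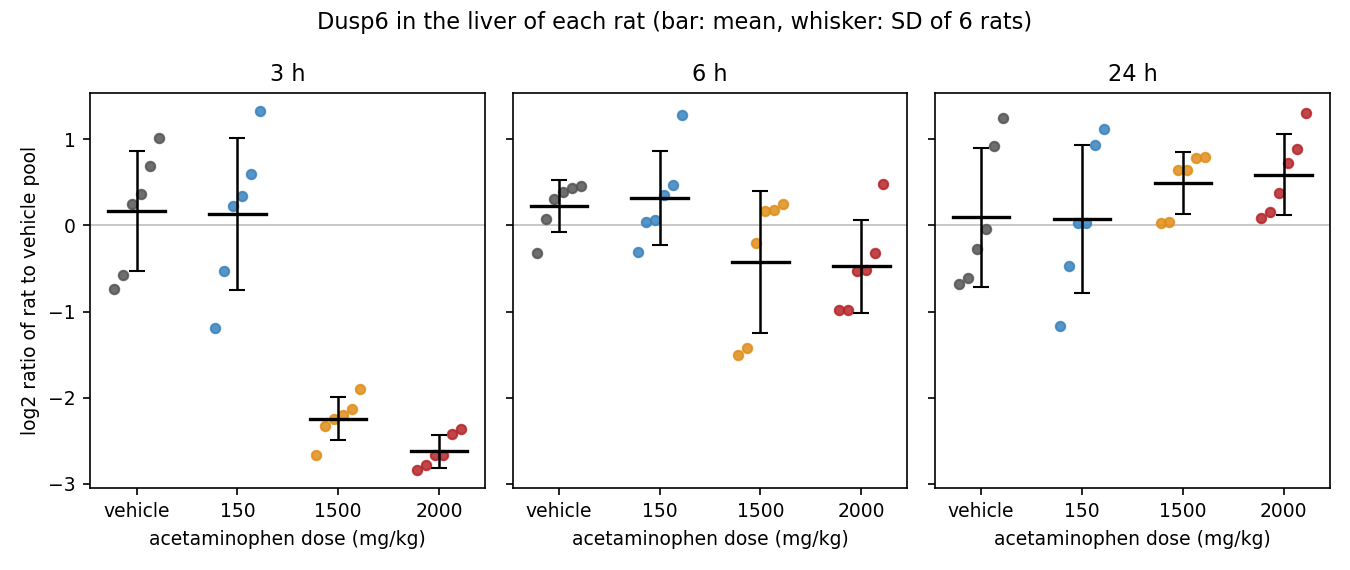
Log2 ratio of Dusp6 to the vehicle pool (vertical axis) in each rat (points) by dose in mg/kg (horizontal axis) at 3, 6 and 24 h, with the mean (bar) and SD (whisker) of 6 rats. At 3 h the 12 rats of 1500 and 2000 mg/kg sit between -2.84 and -1.90, below all others. At 24 h the 4 groups overlap.

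The gene whose pattern was most like Dusp6 over the 72 rats was Foxa2, a transcription factor of hepatocytes, at a Pearson r of 0.918 (Spearman rho 0.855). It was followed by Zfp444, a zinc finger gene, at 0.825, Pacsin3, which shapes membranes in endocytosis, at 0.820, Rup2 at 0.798 and Zfp385b at 0.791. The most opposite were Noct, a rhythmically expressed gene of metabolism, at -0.895, Klf15, a factor of fasting metabolism, at -0.836, and Slc25a25, a mitochondrial carrier, at -0.827. Within groups, after removal of the 12 group means, r was 0.779 for Foxa2 and -0.619 for Noct, but 0.113 for Zfp444 and 0.201 for Pacsin3. The rats share the array design and the change of all these genes at 3 h, and the coefficients are a description with no test. Foxa2 differed from vehicle by -2.65 ± 0.33 at 3 h and 2000 mg/kg, and Noct by 2.16 ± 0.29. Among the members themselves, Mapkapk3 was most like Dusp6, at r = 0.666, and Mapk1ip1 most opposite, at -0.395.

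No other phosphatase among the members passed at 3 h. With limma 0 of the other 11 DUSPs changed at 3 h and 0 of 12 at 6 h. At an unadjusted p under 0.05 there was 1 of 11 at each dose at 3 h (Dusp3), where 16.7% of all rows at 1500 mg/kg and 21.0% at 2000 mg/kg had one. At 6 h there were 0 of 12 at 1500 mg/kg (17.5% of all rows) and 2 of 12 at 2000 mg/kg, Dusp6 and Dusp12 (22% of all rows). At 24 h 4 of 12 changed at 1500 mg/kg (21.5% of all rows, 27.2% of rows with a symbol) and 7 of 12 at 2000 mg/kg (24.3% of all rows, 30% of rows with a symbol). Dusp6 was not among them.

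Dusp5, a nuclear phosphatase of ERK whose gene ERK signalling induces, rose most of all members at 24 h. Its log2 ratio was 0.38 at the lowest, 1.77 at the median and 2.91 at the highest in rats of 1500 mg/kg, and 0.28, 1.75 and 3.55 in rats of 2000 mg/kg, against -0.19, 0.04 and 0.28 in vehicle rats. Rats 504 and 5389 of 1500 mg/kg and rat 9540 of 2000 mg/kg stood near the top of the vehicle range, and rat 9540 lay below the highest vehicle rat. The differences were 1.6 ± 0.32 (adjusted p = 9.64e-05) and 1.91 ± 0.32 (adjusted p = 3.65e-06), or 3.04 and 3.75 times vehicle, in order of dose. At 6 h the differences of 0.43 ± 0.32 and 0.22 ± 0.32 did not pass. The other nuclear phosphatase, Dusp2, differed by 0.25 ± 0.18 at 1500 mg/kg, which did not pass, and rose by 0.46 ± 0.18 (adjusted p = 0.0469) at 2000 mg/kg. That call was lost without any one of rats 2483, 685, 7375 and 7393 of vehicle or 2015, 2197, 5889 and 8089 of 2000 mg/kg, with an adjusted p of up to 0.223.

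Dusp9, which like Dusp6 acts on ERK in the cytoplasm, fell at 24 h. Its log2 ratio was -1.06 at the lowest, -0.87 at the median and -0.10 at the highest in rats of 1500 mg/kg, and -1.16, -0.91 and -0.69 in rats of 2000 mg/kg, against -0.37, -0.18 and 0.17 in vehicle rats. Every rat of 2000 mg/kg lay below every vehicle rat, and at 1500 mg/kg rat 504 alone stood within the vehicle range, at -0.10. The differences were -0.59 ± 0.10 (adjusted p = 1.27e-05) and -0.79 ± 0.10 (adjusted p = 1.85e-08). Dusp7, the remaining cytoplasmic ERK phosphatase, differed by -0.20 ± 0.11 at 24 h and 1500 mg/kg, its largest difference, and did not pass in any comparison.

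Both phosphatases of JNK and p38 rose at 24 h and 2000 mg/kg in the main fit, though neither call held under every alternative. Dusp16 had differences of 0.23 ± 0.07 (adjusted p = 0.0169) and 0.24 ± 0.07 (adjusted p = 0.0106) at 1500 and 2000 mg/kg, with ranges of 0.10 to 0.67 and 0.12 to 0.51 against -0.03 to 0.33 in vehicle rats. The call at 1500 mg/kg was lost without rat 7075 or 8194 of that dose or vehicle rat 685 (adjusted p up to 0.119). Both Dusp16 calls were lost with quantile normalization, with Cy5 alone, with the compared groups alone and in rats with no array in the shared-blank set. The call at 1500 mg/kg was also lost with Cy3 alone, and that at 2000 mg/kg in rats with both arrays in the set. Dusp8 differed by 0.37 ± 0.14 (adjusted p = 0.0531) at 1500 mg/kg and rose by 0.43 ± 0.14 (adjusted p = 0.0182) at 2000 mg/kg. Without rat 8089, the highest at 1.39, the difference was 0.22 (adjusted p = 0.206). At 2000 mg/kg its 2 probes gave 0.12 and 0.75. Of its deposited array values 21.2% were exact zeros, and the call was lost with zeros set to missing. It was also lost with either dye orientation alone, with the compared groups alone and in both kinds of rats split by the shared blank probes.

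Among the 5 atypical DUSPs, Dusp14 rose and Dusp22 fell at 24 h. Dusp14, known in human and mouse T cells as a brake on the adaptor TAB1, ranged from -0.30 to 1.51 at 2000 mg/kg against -0.20 to 0.33 in vehicle rats, with 3 of 6 dosed rats above the vehicle mean. Its difference of 0.60 ± 0.22 (adjusted p = 0.0327) was lost without any one of rats 2483, 685, 7375 and 7393 of vehicle or 2015, 5889 and 8089 of 2000 mg/kg (adjusted p up to 0.180). Dusp22, known as a JNK pathway phosphatase, fell by 0.22 ± 0.06 (adjusted p = 0.00221) at 1500 mg/kg, where the groups did not overlap. At 2000 mg/kg it fell by 0.18 ± 0.06 (adjusted p = 0.0121), which was lost without rat 5889 or 8089 of that dose or vehicle rat 2483 (adjusted p up to 0.114). Dusp3, Dusp12 and Dusp15 did not pass in any comparison; their largest difference was -0.33 ± 0.12 (adjusted p = 0.0772), of Dusp12 at 6 h and 2000 mg/kg.

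Dusp1, an inducible phosphatase of JNK and p38 that is not counted among the members, differed at 2000 mg/kg by 1.72 ± 0.38 at 3 h, 1.21 ± 0.38 at 6 h and 1.48 ± 0.38 at 24 h, each past the threshold. At 1500 mg/kg it differed by 1.44 ± 0.38 at 3 h and 1.06 ± 0.38 at 24 h, both past it, and by 0.93 ± 0.38 at 6 h, which did not pass (adjusted p = 0.143).

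Of the 7 MAP2K, 4 changed in at least 1 of the 6 comparisons, as did 38.7% of all rows and 44.8% of rows with a gene symbol. The pair that phosphorylates p38, Map2k3 and Map2k6, changed in opposite directions at 24 h. Map2k3 at 24 h had log2 ratios of 0.46 at the lowest, 1.12 at the median and 1.37 at the highest in rats of 1500 mg/kg, and 0.77, 1.26 and 1.79 in rats of 2000 mg/kg, against -0.09, 0.21 and 0.41 in vehicle rats. Neither dosed group overlapped vehicle. The gene rose by 0.82 ± 0.13 (adjusted p = 1.39e-06) and 1.06 ± 0.13 (adjusted p = 2.18e-09), or 1.77 and 2.08 times vehicle.

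Map2k6 was lower at 3 h and at 24 h. At 3 h its ratios ran from -0.98 to -0.32 at 1500 mg/kg and from -1.11 to -0.24 at 2000 mg/kg, against -0.56 to 0.51 in vehicle rats. It fell by 0.79 ± 0.23 (adjusted p = 0.0245) and 0.82 ± 0.23 (adjusted p = 0.0118). At 24 h the ranges were -1.71 to -0.01 and -1.49 to -0.18 against -0.64 to 0.35, and it fell by 0.92 ± 0.23 (adjusted p = 0.00159) and 0.88 ± 0.23 (adjusted p = 0.00218). The groups overlapped at both times, and at 6 h the differences of -0.08 ± 0.23 and -0.19 ± 0.23 did not pass. The call at 3 h and 1500 mg/kg was lost without vehicle rat 1658 or 2698 or dosed rat 4623 (adjusted p up to 0.0704).

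Map2k4, a kinase of JNK, was higher at every time in the main fit, though no call held under every alternative. At 3 h its difference was 0.51 ± 0.15 (adjusted p = 0.0211) at 1500 mg/kg and 0.66 ± 0.15 (adjusted p = 0.000865) at 2000 mg/kg, at 6 h 0.45 ± 0.15 (adjusted p = 0.0414) and 0.60 ± 0.15 (adjusted p = 0.00265), and at 24 h 0.53 ± 0.15 (adjusted p = 0.00481) and 0.63 ± 0.15 (adjusted p = 0.000552). At 24 h its ratios ranged from 0.81 to 1.34 at 2000 mg/kg against 0.00 to 0.67 in vehicle rats, with no overlap. The calls at 3 and 6 h and 1500 mg/kg depended on single rats, and that at 24 h did not. At 3 h the call was lost without vehicle rat 1009 or 2698 or dosed rat 6474, 7077 or 7415 (adjusted p up to 0.0902). At 6 h it was lost without vehicle rat 1871, 4550, 8897 or 9476 or dosed rat 1376, 2123, 5407, 7334 or 8918 (adjusted p up to 0.160). All calls of Map2k4 but that at 24 h and 2000 mg/kg were lost in rats with no array in the shared-blank set. The calls at 1500 mg/kg were lost at every time with the compared groups alone. Quantile normalization lost both calls at 24 h and that at 6 h and 1500 mg/kg. Map2k7, the other kinase of JNK, did not pass in any comparison.

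Map2k1, the kinase of ERK known as MEK1, rose at 24 h. Its log2 ratio was 0.01 at the lowest, 0.46 at the median and 1.07 at the highest in rats of 1500 mg/kg, and 0.15, 0.62 and 1.02 in rats of 2000 mg/kg, against -0.22, -0.09 and 0.01 in vehicle rats. The groups did not overlap at 2000 mg/kg, and at 1500 mg/kg only rat 5389 reached down to the vehicle range. The differences were 0.59 ± 0.10 (adjusted p = 5.97e-06) and 0.67 ± 0.10 (adjusted p = 2.52e-07). Map2k2, the other kinase of ERK, and Map2k5, which acts on ERK5, did not pass; Map2k5 differed by up to 0.55 ± 0.29 (adjusted p = 0.343), at 3 h and 1500 mg/kg.

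**Figure D3:**
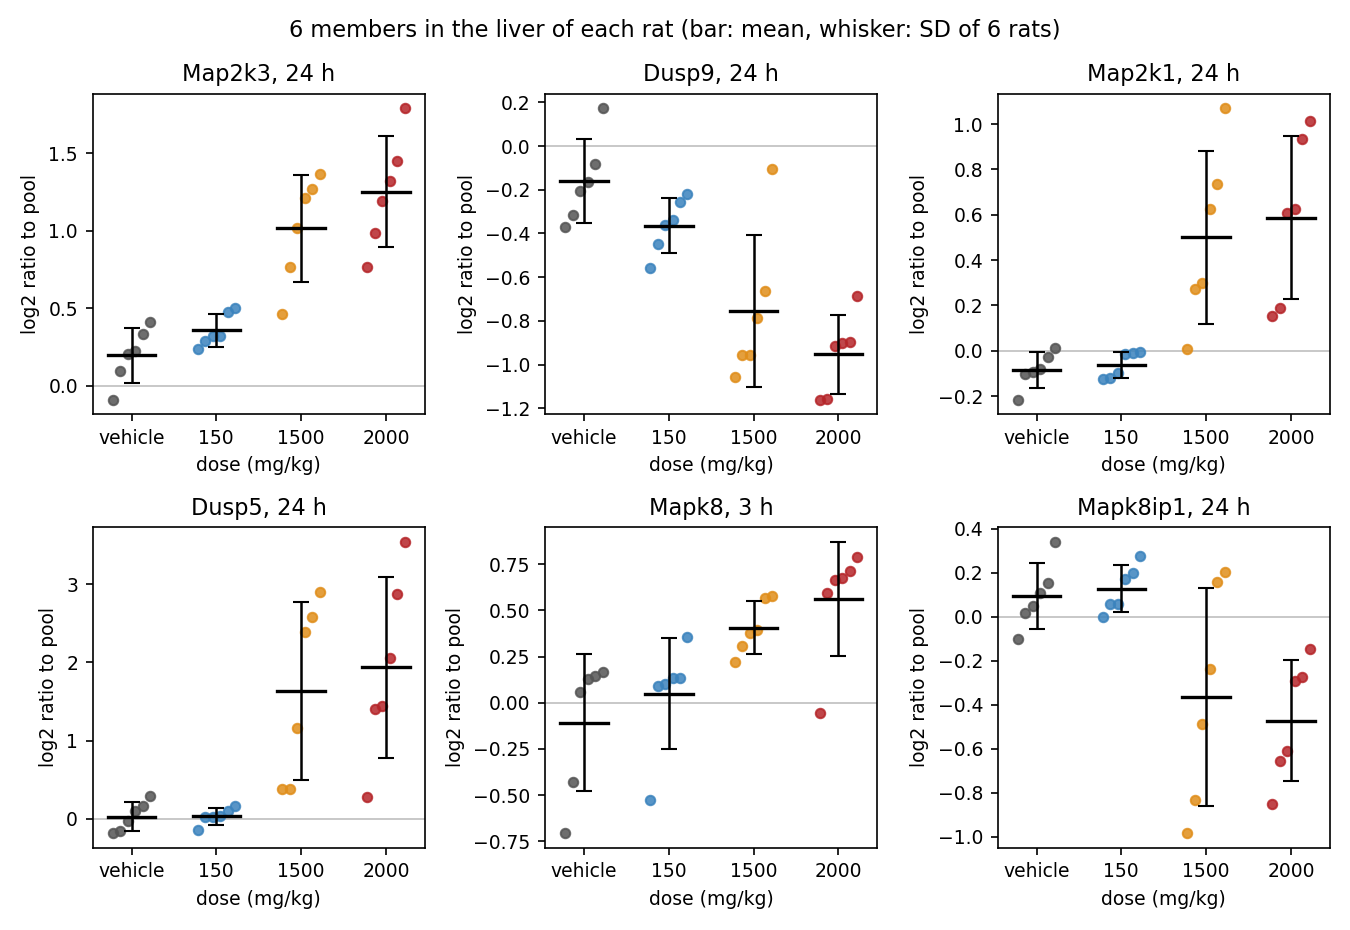
Log2 ratio to the vehicle pool (vertical axes, scaled by panel) in each rat (points) by dose in mg/kg for the 6 members other than Dusp6 with the smallest p, at 24 h or, for Mapk8, at 3 h, with the mean (bar) and SD (whisker) of 6 rats. Dusp5, Map2k1 and Mapk8ip1 spread more widely in rats of 1500 and 2000 mg/kg than in rats of vehicle or 150 mg/kg, and 1 rat of 2000 mg/kg stands low for Mapk8.

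At 24 h the same rats stood at the weak end in several members, a pattern picked out after the values were seen. Rats 504 and 5389 of 1500 mg/kg and rat 9540 of 2000 mg/kg had the 3 lowest Dusp5 ratios of the 12 rats, at 0.38, 0.38 and 0.28, where rat 8089 stood at 3.55. The same 3 rats had Map2k6 ratios of -0.01, -0.34 and -0.18, the 3 highest of the 12, and Map2k3 ratios of 0.46, 0.77 and 0.77, the 3 lowest. For Dusp6 the order differed, with rat 504 at 0.78 and rat 9388 at 0.08.

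Of the 10 MAP3K, the kinases that receive stress and growth signals, 0 changed in any of the 6 comparisons with limma. At an unadjusted p under 0.05 there were 3 at 1500 mg/kg and 4 at 2000 mg/kg at 3 h, where 16.7% and 21% of all rows had one. There were 0 and 1 at 6 h (17.5% and 22% of all rows), and 0 and 1 at 24 h (31.9% and 33.9%). As means over their probes, Map3k3, Map3k4 and Map3k11 differed by at most 0.16 ± 0.08, of Map3k3 at 3 h and 1500 mg/kg. These means can hide probes that disagree. Those of Map3k11 ran from -0.01 to 0.40 at 3 h and 1500 mg/kg. Those of Map3k4 ran from -0.33 to 0.15 at 24 h and 2000 mg/kg. The largest difference was that of Map3k8, also known as Tpl2, which relays inflammatory signals to ERK, at 0.52 ± 0.27 (adjusted p = 0.177) at 1500 mg/kg and 0.54 ± 0.27 (adjusted p = 0.151) at 2000 mg/kg at 24 h. Map3k10 differed by 0.40 ± 0.17 (adjusted p = 0.138) at 3 h and 2000 mg/kg. Map3k14, the NF-kappaB inducing kinase, differed by -0.27 ± 0.13 at 3 h and by 0.33 ± 0.13 (adjusted p = 0.0637) at 24 h at 2000 mg/kg, and its response was higher at 24 h than at 3 h by 0.56 ± 0.16 (adjusted p = 0.0104). For Map3k1, 50.7% of deposited values were exact zeros. Data simulated for 24 h and 2000 mg/kg recovered 48% of changes of 0.5 on the log2 scale, so differences of this size could be missed. Only 50 rows were changed at each size there, against 4608 rows called in the data, so that share need not hold for the MAP3K. The probes of Map3k2 disagreed as well, at -0.25 and 0.65 at 24 h and 2000 mg/kg. There the probes of Map3k10 and Map3k13 also differed in sign.

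Of the 3 MAP4K, 2 fell at 24 h. Map4k3 fell by 0.32 ± 0.08 (adjusted p = 0.000986) at 1500 mg/kg and 0.26 ± 0.08 (adjusted p = 0.00774) at 2000 mg/kg, with ranges of -0.66 to -0.17 and -0.64 to -0.22 against -0.40 to 0.06 in vehicle rats. At 2000 mg/kg its 2 probes gave -0.52 and -0.0007. Map4k1, a kinase of blood cells, fell by 0.16 ± 0.05 at each dose (adjusted p = 0.0113 and 0.00799), and at 2000 mg/kg its range of -0.22 to -0.03 lay just below that of -0.03 to 0.09 in vehicle rats. Of 5 lymphocyte markers 3 were lower at 24 h and 1500 mg/kg (11.4% of all rows) and 2 at 2000 mg/kg (12.5% of all rows). Cd4, picked after the values were seen, differed by -0.75 ± 0.23 at 1500 mg/kg. Of 9 Kupffer cell and macrophage markers 4 were lower at each of these doses. The part of either cell type in the values of Map4k1 was not tested. Map4k4 did not pass, and 17.4% of its deposited values were exact zeros.

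Among the 6 MAP kinases, Mapk8, which encodes JNK1, rose at 3 h. Its log2 ratio was 0.22 at the lowest, 0.39 at the median and 0.58 at the highest in rats of 1500 mg/kg, and -0.06, 0.67 and 0.79 in rats of 2000 mg/kg, against -0.71, 0.09 and 0.17 in vehicle rats. Groups did not overlap at 1500 mg/kg. At 2000 mg/kg rat 7365 stood within the vehicle range, and vehicle rats 2698 and 1009 stood well below the other vehicle rats, at -0.71 and -0.43. The differences were 0.51 ± 0.13 (adjusted p = 0.00784) and 0.67 ± 0.13 (adjusted p = 0.000159). Without vehicle rat 2698 the call at 1500 mg/kg was lost (0.39, adjusted p = 0.0625), and the number of members changed there fell to 2. The 2 probes of Mapk8 differed in size, at 0.46 and 0.88 at 3 h and 2000 mg/kg.

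The other JNK genes differed from Mapk8. Mapk9, JNK2, fell by 0.23 ± 0.09 (adjusted p = 0.0471) at 24 h and 2000 mg/kg, with a range of -0.51 to -0.30 against -0.24 to -0.05 in vehicle rats and no overlap. That call was lost without any one of vehicle rats 5999, 685, 7375 and 7393 or dosed rats 2197, 5889, 8089 and 9388 (adjusted p up to 0.109). Mapk10, JNK3, did not pass, and differed by 0.19 ± 0.20 at 3 h and 2000 mg/kg. Mapk14, the main p38 kinase, differed by 0.34 ± 0.13 (adjusted p = 0.0524) at 24 h and 1500 mg/kg and rose by 0.42 ± 0.13 (adjusted p = 0.0123) at 2000 mg/kg. The call was lost without vehicle rat 1457 or 685 or dosed rat 8089 (adjusted p up to 0.0724). Mapk4 and Mapk6, atypical MAP kinases, did not pass in any comparison.

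Mapk8ip1, the scaffold JIP1 that holds JNK with its kinases, fell at 24 h. Its log2 ratio was -0.98 at the lowest, -0.36 at the median and 0.20 at the highest in rats of 1500 mg/kg, and -0.85, -0.45 and -0.15 in rats of 2000 mg/kg, against -0.10, 0.08 and 0.34 in vehicle rats. The groups did not overlap at 2000 mg/kg, and at 1500 mg/kg rats 504 and 5389 lay above the vehicle median. The gene fell by 0.46 ± 0.12 (adjusted p = 0.00271) and 0.57 ± 0.12 (adjusted p = 0.000168). Mapk1ip1 rose by 0.38 ± 0.08 and 0.32 ± 0.08 at 3 h, by 0.31 ± 0.08 and 0.39 ± 0.08 at 6 h and, at 24 h, by 0.26 ± 0.08 at 2000 mg/kg, whereas 0.22 ± 0.08 at 24 h and 1500 mg/kg did not pass (adjusted p = 0.0503). Mapk8ip3, a scaffold also known as JIP3, did not pass, and its probes gave -0.16 and 0.79 at 24 h and 2000 mg/kg.

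Mapkapk3, a kinase that p38 activates, changed direction with time. At 3 h its log2 ratio was -0.87 at the lowest, -0.72 at the median and -0.60 at the highest in rats of 1500 mg/kg, and -1.04, -0.99 and -0.80 in rats of 2000 mg/kg, against -0.35, -0.26 and 0.30 in vehicle rats, with no overlap. At 6 h the range was -1.18 to -0.42 and -1.09 to -0.72 against -0.59 to 0.24. At 24 h it was -0.05 to 1.0 and -0.15 to 1.22 against -0.29 to 0.35, so that dosed rats lay mostly above vehicle rats, with overlap. The gene fell by 0.62 ± 0.18 (adjusted p = 0.0237) and 0.84 ± 0.18 (adjusted p = 0.000573) at 3 h and by 0.75 ± 0.18 (adjusted p = 0.00306) and 0.82 ± 0.18 (adjusted p = 0.000694) at 6 h, and rose by 0.58 ± 0.18 (adjusted p = 0.0114) and 0.66 ± 0.18 (adjusted p = 0.00365) at 24 h, in order of dose. The response was higher at 24 h than at 6 h by 1.41 ± 0.22 (adjusted p = 2.54e-06) and than at 3 h by 1.35 ± 0.22 (adjusted p = 3.60e-06). The call at 3 h and 1500 mg/kg was lost without vehicle rat 2698 or 3420 or dosed rat 6474 (adjusted p up to 0.0857), and that at 24 h and 1500 mg/kg without dosed rat 8194 or 9537 (adjusted p up to 0.0586). In rats with no array in the shared-blank set, both 6 h calls and those at 3 and 24 h and 1500 mg/kg were lost (adjusted p up to 0.237). In rats with both arrays in it, both 24 h calls and that at 6 h and 2000 mg/kg were lost (adjusted p up to 0.466). Both 24 h calls were also lost with the compared groups alone. The directions stayed the same, and the difference between responses at 24 and 6 h held under every alternative.

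Mapkapk2, the close relative of Mapkapk3, did not follow it. It differed by 0.25 ± 0.12 (adjusted p = 0.265) at 3 h and 1500 mg/kg and rose by 0.42 ± 0.12 (adjusted p = 0.0154) at 2000 mg/kg, with a range of 0.41 to 1.0 against -0.17 to 0.51 in vehicle rats. That call was lost without vehicle rat 1009 or dosed rat 7365 (adjusted p up to 0.0799). The 2 probes of Mapkapk2 gave 0.12 and 0.72 at 3 h and 2000 mg/kg. At 24 h and 2000 mg/kg it differed by 0.00 ± 0.12, where its 2 probes gave -0.28 and 0.29.

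**Figure D4:**
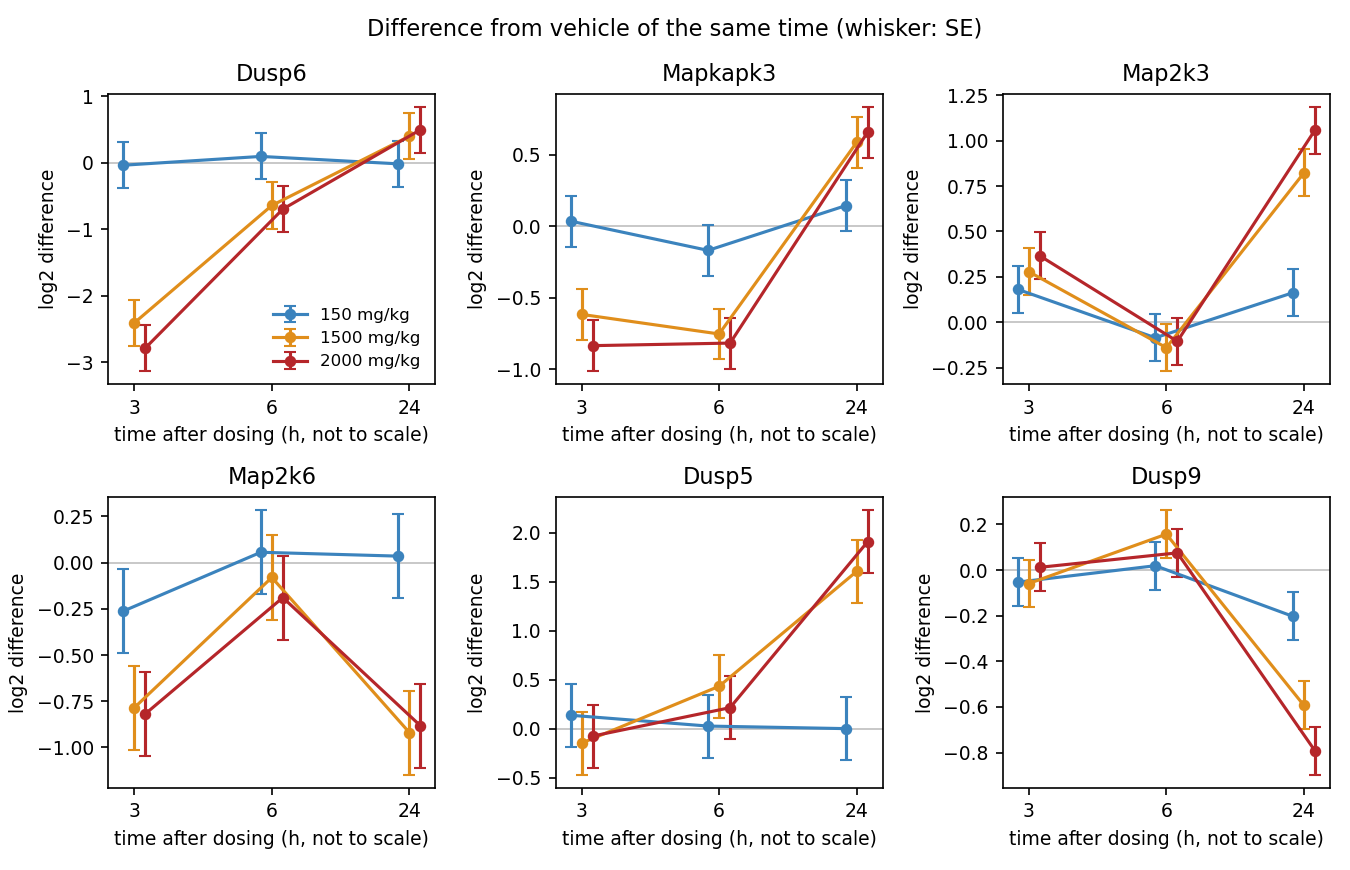
Log2 difference from vehicle of the same time (vertical axes, scaled by panel; whiskers, SE) at 3, 6 and 24 h for 6 members at 150, 1500 and 2000 mg/kg. Dusp6 is lowest at 3 h, Mapkapk3 lies below 0 at 3 and 6 h and above it at 24 h, and Map2k3, Dusp5 and Dusp9 stand apart from 0 at 24 h.

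Responses differed between times in 1 member from 3 to 6 h, which was higher (3.93% of all rows, 2.13% higher and 1.80% lower). They differed in 9 members from 6 to 24 h, 5 higher and 4 lower (15.6% of all rows, 7.52% higher and 8.12% lower), and in 10 members from 3 to 24 h, 6 higher and 4 lower (18.8% of all rows, 8.33% higher and 10.5% lower). As shares of the 43 members the counts were 2.33%, 20.9% and 23.3% in this order. Among rows with a gene symbol 4.11%, 19.2% and 22.9% differed, so the members were near or below that background. Dusp6 was the member of the first comparison. Map2k3 had a response higher at 24 h than at 6 h by 1.06 ± 0.16 (adjusted p = 1.13e-06) and Dusp9 one lower by 0.81 ± 0.13 (adjusted p = 3.86e-06). Without single rats the first count ran from 1 to 4, with 4 without rat 7334 of 6 h and 1500 mg/kg.

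At 150 mg/kg no member changed at any time, and 0% of all rows did. With limma 1 member at 3 h (3.73% of all rows), 0 at 6 h (3.10%) and 0 at 24 h (2.79%) had an unadjusted p under 0.05, that of 3 h being Map3k14 at -0.33 ± 0.13. Differences over the 43 members ranged from -0.34 to 0.37 across the 3 times. Between 2000 and 1500 mg/kg no member differed either, where 0.0105% of rows did at 3 h, 0.00527% at 6 h and 0% at 24 h, and 1 member had an unadjusted p under 0.05, Map2k5 at 6 h, at 0.62 ± 0.29 (95% interval 0.04 to 1.2). Of all rows 4.17%, 4.07% and 4.45% had one at 3, 6 and 24 h. At 24 h the interval was -0.02 to 0.49 for Map2k3 and -0.41 to 0.01 for Dusp9, both with 0 inside.

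A list for ERK, of genes known as its transcriptional outputs and of the transcription factor Elk1 and its relatives, was described at 2000 mg/kg. Activity of ERK was not measured. At 3 h 0 of 15 measured were higher and 1 was lower (Ier3, an early response gene, -0.78 ± 0.22), at 6 h 2 were higher and 0 lower, and at 24 h 8 were higher and 2 lower. Of all rows 4.92%, 5.31% and 11.8% were higher and 4.09%, 5.84% and 12.5% lower at the 3 times. Egr1, an immediate early transcription factor, rose by 2.58 ± 0.65 at 6 h and 2.76 ± 0.65 at 24 h, and Myc by 1.15 ± 0.40 and 2.52 ± 0.40. The lower genes at 24 h were Etv4, at -0.42 ± 0.09, and Elk1, at -0.52 ± 0.13. The median difference of the 15 genes was 0.03 at 3 h, 0.08 at 6 h and 0.51 at 24 h, against a median near 0 over all rows. Of 10 genes of the AP-1 family and related factors, the targets of JNK and ERK, 1, 2 and 7 were higher at the 3 times and 0 lower. Atf3 rose by 3.65 ± 0.65 and Jun by 1.40 ± 0.45 at 24 h.

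Genes that act upstream were described in the same way, beside 4.92%, 5.31% and 11.8% of all rows higher and 4.09%, 5.84% and 12.5% lower at 3, 6 and 24 h. Of 13 receptors and ligands, 1 was higher and 1 lower at 3 h, 0 and 1 at 6 h, and 1 and 2 at 24 h, where Fgf21 rose by 1.75 ± 0.29 and Egf fell by 0.84 ± 0.14. Of 15 genes of the Ras and Raf relay, 2 were higher at 3 h, 1 at 6 h and 2 at 24 h, and 3 were lower at 24 h. Sos1, which activates Ras, rose by 0.67 ± 0.13 at 3 h, and Ptpn11, the phosphatase SHP2, by 1.11 ± 0.22 at 24 h. Of 14 adaptors and effectors of the stress kinases 3, 6 and 6 were higher and 0, 1 and 1 lower at the 3 times. Gadd45b, which binds MAP3K4 and MAP2K7, rose by 2.15 ± 0.42, 2.38 ± 0.42 and 1.62 ± 0.42, and Trib3, a pseudokinase of the stress response, by 3.60 ± 0.34 at 24 h.

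Markers of other cell types moved with the groups as well, and their part in the members' values was not tested. At 2000 mg/kg 4.09%, 5.84% and 12.5% of all rows were lower and 4.92%, 5.31% and 11.8% higher at 3, 6 and 24 h. At 24 h and 2000 mg/kg 4 of 9 Kupffer cell and macrophage markers were lower, 0 higher, and the mean log2 ratio of the list ranged from -0.38 to -0.14 in dosed rats and from -0.28 to 0.35 in vehicle rats. Of 7 stellate cell and fibroblast markers 2, 4 and 3 were lower at 3, 6 and 24 h, with a range of -0.79 to -0.32 in dosed rats against -0.12 to 0.04 in vehicle rats at 24 h. Of 6 endothelial markers 4 were lower at 24 h, and of 3 neutrophil markers 1 was higher, S100a9, at 1.64 ± 0.54. Of 4 hepatocyte markers and 4 cholangiocyte markers, 0 passed at any of the 3 times at 2000 mg/kg.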

How the data were processed

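Liver RNA of 72 rats was measured on 144 two-colour arrays. The values are log ratios deposited by the authors, taken here as log10 of Cy5 over Cy3, and the dose of each rat comes from a key deposited by the authors. Per the labels, 1 channel held the rat's RNA and the other the pool, and the second array swapped the dyes. The sources used here name neither the log base and direction nor how background and dyes were handled. Array medians lay between 0 and 0.000258, and 7.74% of values were exact zeros (3.38% of the members' values), which can shrink differences of dim probes. In 63 of 72 rats the pair of dye-swapped arrays had a negative correlation once mean dye effects were subtracted. The rest included vehicle rats 685 (0.31, the highest of all), 1009 (0.04) and 1871 (0.07), on which some calls above turned. Scanner intensities were not used here, so no filter on dim probes was applied.

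Values were converted to log2 (a wrong base would scale every difference alike), the sign was turned for arrays that held the rat in Cy3, and each rat's pair of arrays was averaged. Of 22075 probes, 12750 had 1 gene symbol, 5 several and 9320 none, and probes of 1 symbol were averaged. The members had 66 probes, and 17 members had more than 1. In the calls of members with several probes, 21 in all, 0 had probes of opposite sign, but the probes could differ widely in size. Outside calls, 14 of those 17 members had probes of opposite sign in at least 1 of the 6 comparisons of higher doses with vehicle. A small averaged difference there can hide probes that disagree. At 2000 mg/kg the calls of Map4k3 and Dusp8 at 24 h and of Mapkapk2 at 3 h rested mainly on 1 probe. The platform's symbols can be old; 12720 probes were found in RefSeq's gene table (GRCr8, names alone) and 0 symbols changed. All columns of sample values were used. Promoters came from RefSeq, GRCr8.

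Group means were fitted to all 72 rats with limma 3.58.1 in R 4.3.3 at an adjusted p threshold of 0.05, and every adjusted p in the text is limma's. Contrasts compared dose with vehicle, 2000 with 1500 mg/kg, and responses between times. The rat is the replicate, and 6 rats a group limit the precision. In data simulated for 24 h and 2000 mg/kg over 18978 rows the fit recovered 48% of genes changed by 0.5, 86% by 1 and 100% by 2 on the log2 scale, and 9 of 172 calls were false. Only 50 rows were changed at each size, against 4608 rows called in the data. The adjustment depends on how many rows change, so these shares need not hold for the data. Tables and figures used Python 3.11.15, pandas 2.3.3, NumPy 2.4.6 and matplotlib 3.10.9.

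The members, gene lists and tests were chosen with earlier results of these data known. Every member is named by class; values by rat are given for Dusp6 and the 6 members with the smallest p at 1500 or 2000 mg/kg, from each list at most the 4 genes with the smallest p at a time at 2000 mg/kg, and for likeness to Dusp6 the 5 highest and 3 lowest Pearson correlations. Ranges of other members, and Cd4, were added after the values were seen. Alternatives were centring, quantile normalization, either dye orientation alone, zeros as missing, 1 row per probe, the shared blank probes as a covariate, a random block for the rat, a fit on the groups compared and each rat left out. Splits by the shared blank probes were added after seeing the data.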

Additional observations from a re-analysis of the deposited data

Results flagged for a closer look

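In 84 groups of 6 rats tested over 7 members, 4 held a rat whose gap to the others exceeded Dixon's critical value, and chance gives about 1 in 20 groups. At 3 h and 2000 mg/kg rat 7365 stood apart for a pair of members, high for Map2k3 at a log2 ratio of 0.893 and low for Mapk8 at -0.056. At 3 h and 150 mg/kg rat 5339 was low for Mapk8 at -0.528, and at 6 h vehicle rat 1871 was low for Map2k1 at -0.139.

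The response (mean of 1500 and 2000 mg/kg minus vehicle) differed between times in 20 pairs of member and comparison by limma's test of the interaction. From 3 to 6 h the response of Dusp6 was higher at the later time by 1.93. From 6 to 24 h the responses of Dusp5 (1.43), Mapkapk3 (1.41), Map2k3 (1.06), Map2k1 (0.53) and Dusp16 (0.29) were higher at the later time, and those of Dusp9 (-0.81), Map2k6 (-0.77), Dusp22 (-0.21) and Map4k1 (-0.18) lower. From 3 to 24 h those of Dusp6 (3.05), Dusp5 (1.87), Mapkapk3 (1.35), Map2k3 (0.62), Map3k14 (0.56) and Map2k1 (0.47) were higher, and those of Dusp9 (-0.67), Mapk8ip1 (-0.44), Map4k3 (-0.26) and Dusp22 (-0.21) lower. The call of Map2k6 from 6 to 24 h (adjusted p = 0.0499) was lost without any one of 22 rats, and that of Map4k3 from 3 to 24 h (adjusted p = 0.0413) without any one of 14.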

How the results depend on the processing

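Of the 69 calls of a member in a comparison, 15 held under every alternative and every rat left out, and no call reversed. By setting, 69 held with arrays centred, 68 with 1 row per probe or the blank probes as a covariate, 67 with zeros as missing or the rat as a random block, 56 with Cy3 alone, 50 with Cy5 alone, 46 after quantile normalization, 40 with the compared groups alone and 22 in rats with no array in the shared-blank set, a split with fewer rats. Counts of members changed moved as follows. Quantile normalization gave 8 at 24 h and 2000 mg/kg (5 higher, 3 lower), 5 for responses at 6 h against 3 h (2 higher, 3 lower) and 6 at 24 h against 3 h; it also moved the split at 24 h and 1500 mg/kg to 3 higher and 6 lower, at 6 h and 1500 mg/kg to 1 and 1, and for 24 h against 6 h to 5 and 1. Cy5 alone gave 3 at 3 h and 1500 mg/kg and 5 for 24 h against 6 h. For 6 h against 3 h, 1 row per probe gave 2, the covariate 2, the compared groups alone 2 and the random block 4; the random block gave 5 at 6 h and 2000 mg/kg. The compared groups alone gave 1 at 6 h and 5 at 24 h with 1500 mg/kg, 10 at 24 h and 2000 mg/kg, and 4 for 24 h against 6 h. Rats with no array in the shared-blank set gave, at 1500 and 2000 mg/kg, 1 and 3 at 3 h, 0 and 0 at 6 h and 2 and 8 at 24 h, with 3 for 24 h against 6 h and 4 for 24 h against 3 h; rats with both arrays in it gave 7 at 24 h and 2000 mg/kg. Shares of all rows changed under each setting are not given here. Whether the members moved more than other rows cannot be read from these counts, and the cause of the shifts was not tested. With each rat left out, counts ran from 2 to 6 at 3 h and 1500 mg/kg (2 without vehicle rat 2698) and from 1 to 4 for 6 h against 3 h (4 without rat 7334). At 24 h and 2000 mg/kg they ran from 12 to 19. The sign of Dusp6 at 150 mg/kg, never past the threshold, turned to 0.0074 at 3 h and 0.0555 at 24 h after quantile normalization, to 0.0048 at 24 h with Cy3 alone, and to -0.1875 at 6 h and 0.6717 at 24 h in rats with both arrays in the shared-blank set; with a rat left out it ran from -0.2775 to 0.2253 at 3 h, -0.099 to 0.2176 at 6 h and -0.2259 to 0.2313 at 24 h. No paired analysis was possible because the groups share no rat numbers.

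Background correction and dim probes could not be varied, since the deposited ratios carry no intensities, so how far signal over background limits the small differences is unknown here.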
